A study of Mus musculus with 32 samples.

Results

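The 4 germline genes described here, *Tex14*, *Zar1*, *Rnf17* and *Hsf2bp*, were chosen by their higher counts in brain tissue without *Kdm5c*. They make up 4 of the 53715 genes and 17 of the 135181 transcripts in the deposited tables. RNA-seq was performed on the amygdala and hippocampus of 16 adult male mice, with both regions taken from each animal and 4 mice per genotype. All were F1 offspring, with a 129S1/SvImJ father carrying the *Kmt2a* allele and a C57BL/6J mother carrying the *Kdm5c* allele. The genotypes were wildtype (WT), *Kmt2a*-HET (*Kmt2a* +/-), *Kdm5c*-KO (*Kdm5c* -/y) and the double mutant DM (*Kmt2a* +/- and *Kdm5c* -/y). Both mutations are constitutive, so that all cells of the dissected tissue carry them. The *Kmt2a* allele came from a floxed line crossed with mice carrying an inducible Cre at the *Rosa26* locus. Because the rise without *Kdm5c* decided the choice of the genes, every *Kdm5c*-KO or DM value of these 4 genes set against WT is given below as a description with no test. Values of other genes against WT were tested. The lists of these genes were drawn up with earlier results of these data known, so the tests are not independent of that knowledge.

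KDM5C is a histone demethylase that removes methyl groups from lysine 4 of histone H3, a mark of active promoters, and KMT2A is a methyltransferase that places methyl groups on the same residue. Germline genes are kept silent in somatic cells by DNA methylation and by repressor complexes that include E2F6, MGA and MAX, which bind E2F and E-box sequences in promoters. TEX14 keeps intercellular bridges between germ cells open, ZAR1 is an RNA-binding protein of oocytes needed in the early embryo, RNF17 is a Tudor-domain protein of male germ cell granules, and HSF2BP brings BRCA2 to meiotic DNA breaks.

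The promoters of the genes are shown because the best-known germline repressors act through short promoter sequences. RefSeq held a promoter window, 250 bases before to 50 after the start site, for *Tex14*, *Zar1* and *Hsf2bp*. The windows are written in the direction of the gene, on GRCm38.p6, at chr11:87404815-87405114 (plus strand), chr5:72581035-72581334 (minus strand) and chr17:32034459-32034758 (minus strand). The RefSeq start of *Zar1* lies downstream of the GENCODE M21 start. Capitals mark the E2F core TCCCGC or its reverse complement GCGGGA.
Tex14: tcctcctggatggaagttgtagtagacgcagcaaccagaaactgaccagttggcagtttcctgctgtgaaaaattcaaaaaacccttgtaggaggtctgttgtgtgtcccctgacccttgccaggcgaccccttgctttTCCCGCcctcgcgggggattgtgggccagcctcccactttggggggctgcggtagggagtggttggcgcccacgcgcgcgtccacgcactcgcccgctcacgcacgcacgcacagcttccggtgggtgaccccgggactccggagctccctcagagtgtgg
Zar1: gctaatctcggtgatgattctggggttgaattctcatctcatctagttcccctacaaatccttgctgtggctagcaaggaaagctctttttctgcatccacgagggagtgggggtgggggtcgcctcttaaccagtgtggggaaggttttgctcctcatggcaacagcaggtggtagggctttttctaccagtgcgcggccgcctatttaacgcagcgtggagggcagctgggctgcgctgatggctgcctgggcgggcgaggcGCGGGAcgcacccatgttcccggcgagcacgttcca
Hsf2bp: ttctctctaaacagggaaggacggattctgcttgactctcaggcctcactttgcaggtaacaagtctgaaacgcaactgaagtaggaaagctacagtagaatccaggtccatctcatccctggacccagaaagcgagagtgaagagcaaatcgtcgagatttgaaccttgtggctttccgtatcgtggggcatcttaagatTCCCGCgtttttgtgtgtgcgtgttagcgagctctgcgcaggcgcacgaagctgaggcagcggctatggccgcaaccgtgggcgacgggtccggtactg

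Each of these 3 windows held 1 E2F core, against 20% of 32851 RefSeq promoters of the same length and 37.3% of 83 promoters of other germline genes. Those 83 promoters belong to 67 genes, some with more than 1 promoter. The match began 111 bases before the start in *Tex14* and 49 before in *Hsf2bp*, both as TCCCGC, and 14 bases after the start in *Zar1*, as GCGGGA. The E-box CACGTG, which reads the same on both strands, occurred in 0 of the 3 windows, in 7.15% of all promoters and in 28.9% of the germline promoters. CpG dinucleotides numbered 20 in *Tex14*, 17 in *Zar1* and 20 in *Hsf2bp*, against a median of 7 and an upper quartile of 20 over all promoters. These matches describe letters in the windows, and binding was not measured.

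In GENCODE M21 (mm10), *Tex14* (ENSMUSG00000010342.16) spans chr11:87405065-87555823 on the plus strand and *Zar1* (ENSMUSG00000063935.3) spans chr5:72576806-72581254 on the minus strand. *Rnf17* (ENSMUSG00000000365.9) lies at chr14:56402581-56525032 on the plus strand, and *Hsf2bp* (ENSMUSG00000002076.11 in the tables) at chr17:31944769-32036349 on the minus strand. All are protein-coding. The only protein-coding overlap was between the far 5′ end of *Hsf2bp* and *Rrp1b* on the opposite strand, and the *Hsf2bp* transcripts in the tables end before it. *Zar1l*, the related copy of *Zar1*, had 0 to 9 counts per library.

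Gene counts ranged from 19215503 to 26033615 per amygdala library and from 19322262 to 27798980 per hippocampal library, where a floor of 3 counts equals 0.115 to 0.156 and 0.108 to 0.155 CPM, for counting error only. All 7 hippocampal markers had the higher median in the hippocampus, 5 with separate ranges, and 4 of 6 amygdala markers had the higher median in the amygdala. *Kdm5c* gene counts overlapped between the 8 *Kdm5c*-null and 8 *Kdm5c*-intact libraries, at 1179 to 1400 against 1177 to 1965 normalised counts in the amygdala and 1184 to 1481 against 1463 to 1963 in the hippocampus. *Kmt2a* gene counts likewise overlapped between *Kmt2a*-HET (3410 to 4480) and WT (2075 to 5469) amygdala. Each allele lacks some exons of its gene while gene counts cover all of them, so these sums are a weak check of the labels. In bulk tissue, fewer cells of a type and less RNA per cell cannot be told apart.

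The values that follow are normalised counts, expected counts divided by size factors of all 32 libraries, in the order of mouse 1 to 4. *Tex14* in the amygdala had 7.59, 10.4, 16.8 and 12.1 for WT mice, 10.01, 8.77, 11.2 and 26.1 for *Kmt2a*-HET mice, 123, 112, 143 and 86.1 for *Kdm5c*-KO mice, and 115, 132, 121 and 155 for DM mice. In the hippocampus *Tex14* had 12.9, 5.98, 6.66 and 5.24 for WT mice, 9.03, 8.13, 12.5 and 3.82 for *Kmt2a*-HET mice, 87.5, 80.6, 106 and 102 for *Kdm5c*-KO mice, and 93.1, 88.1, 114 and 90.8 for DM mice. All *Kdm5c*-null libraries lay above all *Kdm5c*-intact ones in both regions, and the highest intact value was 26.1 in a *Kmt2a*-HET amygdala library.

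*Zar1* amygdala libraries gave 9.49, 21.7, 31.4 and 13.9 for WT mice, 14.2, 10.96, 17.2 and 25.2 for *Kmt2a*-HET mice, 106, 119, 114 and 104 for *Kdm5c*-KO mice, and 118, 66.2, 78.8 and 91.1 for DM mice. The hippocampal libraries gave 1.17, 0, 4.44 and 0 for WT mice, 4.52, 2.32, 0 and 0 for *Kmt2a*-HET mice, 12.3, 7.50, 4.08 and 18.5 for *Kdm5c*-KO mice, and 9.66, 3.83, 2.71 and 3.24 for DM mice. The 8 *Kdm5c*-null amygdala libraries were above all *Kdm5c*-intact ones, whereas in the hippocampus 4 of 8 were, and the ranges overlapped. Over the 4 hippocampal mice of a genotype, *Zar1* summed to 5 (WT), 6 (*Kmt2a*-HET), 42 (*Kdm5c*-KO) and 21 (DM) expected counts, so the hippocampal values rest on few reads.

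*Rnf17* in the amygdala had 7.59, 5.67, 11.5 and 14.8 for WT mice, 12.5, 14.3, 9.45 and 9.89 for *Kmt2a*-HET mice, 25.1, 18.01, 28.3 and 45.1 for *Kdm5c*-KO mice, and 40.8, 23.8, 41.3 and 20.7 for DM mice. Its hippocampal values were 12.9, 15.9, 7.77 and 14.0 for WT mice, 9.03, 8.13, 7.71 and 11.5 for *Kmt2a*-HET mice, 25.8, 37.5, 49.0 and 25.3 for *Kdm5c*-KO mice, and 51.0, 27.8, 31.6 and 38.9 for DM mice. *Kdm5c*-null and *Kdm5c*-intact ranges were separate in both regions, the nearest being 18.01 against 14.8 in the amygdala.

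*Hsf2bp* in the amygdala had 5.69, 22.7, 7.34 and 3.71 for WT mice, 8.34, 10.96, 1.72 and 4.50 for *Kmt2a*-HET mice, 78.7, 51.2, 55.6 and 41.0 for *Kdm5c*-KO mice, and 73.1, 35.3, 53.8 and 98.4 for DM mice. In the hippocampus the values were 12.9, 2.99, 1.11 and 12.2 for WT mice, 6.78, 0, 2.89 and 5.09 for *Kmt2a*-HET mice, 32.5, 21.6, 19.4 and 20.5 for *Kdm5c*-KO mice, and 44.8, 24.0, 28.0 and 52.9 for DM mice. The ranges with and without *Kdm5c* were separate in both regions. These separations follow from the choice of the genes and carry no further weight.

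**Figure D1:**
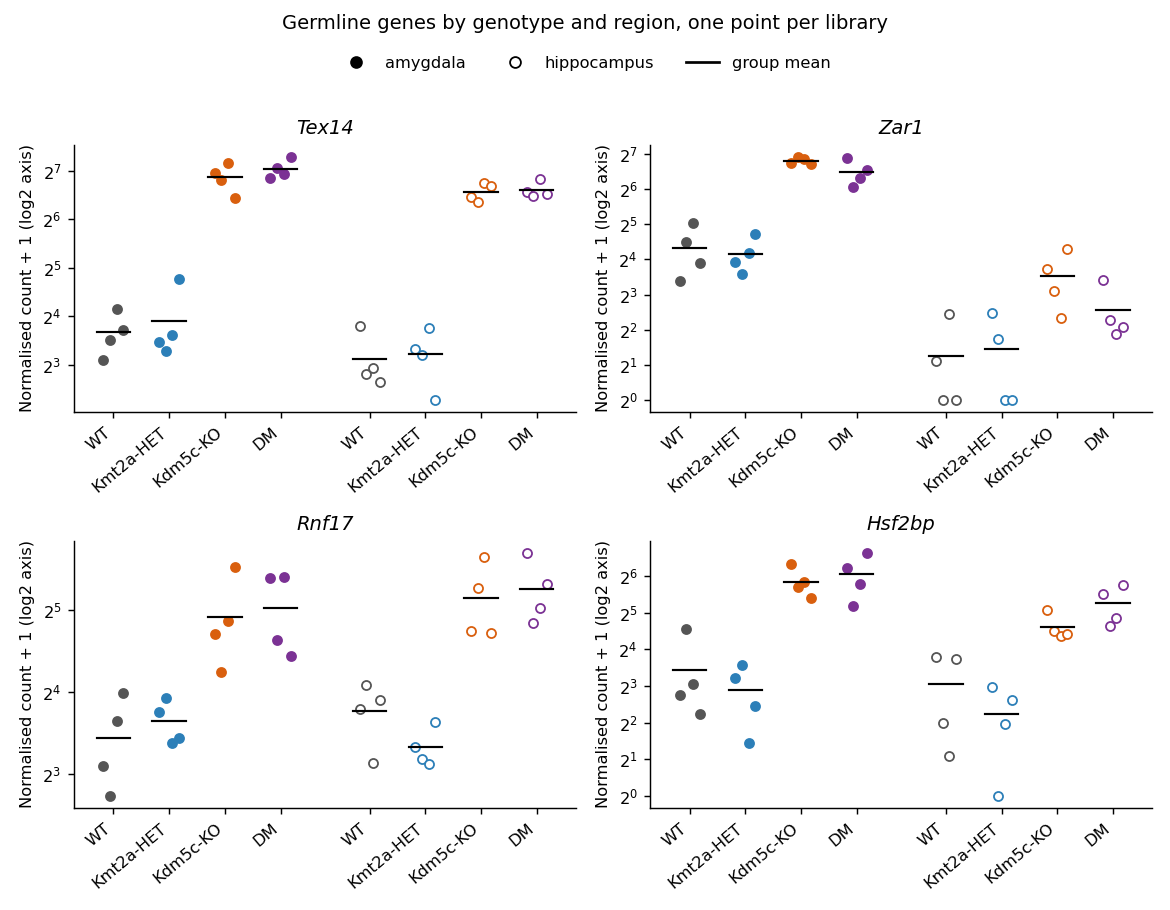
Normalised count plus 1 on a log2 axis for each library, by genotype, with amygdala filled, hippocampus open and the group mean as a bar. *Kdm5c*-KO and DM lie above WT and *Kmt2a*-HET for each gene, except that *Zar1* hippocampal ranges overlap.

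As a description, the fitted log2 fold change of *Tex14* in *Kdm5c*-KO relative to WT was 3.32 (amygdala) and 3.65 (hippocampus), while DM had 3.50 and 3.69. For *Zar1*, *Kdm5c*-KO gave 2.55 and 2.99 and DM gave 2.23 and 1.86, with the amygdala first. For *Rnf17* the *Kdm5c*-KO values were 1.56 and 1.44, and the DM values 1.68 and 1.55. For *Hsf2bp* the *Kdm5c*-KO values were 2.52 and 1.68, and the DM values 2.73 and 2.35. Without the WT library at 22.7, the amygdala values of *Hsf2bp* were 3.35 in *Kdm5c*-KO and 3.56 in DM, and without the WT library at 4.44 the hippocampal values of *Zar1* were 4.88 in *Kdm5c*-KO and 3.76 in DM.

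Levels between genes were compared per length, in CPM per kilobase of the main transcript. The libraries were oligo-dT primed and even coverage along the transcripts was not checked, so the order depends on this division. Before it, the *Kdm5c*-KO amygdala means were 111 normalised counts for *Zar1* and 116 for *Tex14*. In *Kdm5c*-KO amygdala *Zar1* reached 3.56 ± 0.289, *Tex14* 1.12 ± 0.220, *Hsf2bp* 0.906 ± 0.251 and *Rnf17* 0.253 ± 0.0983 (SD, n = 4). In *Kdm5c*-KO hippocampus *Tex14* was first at 0.843 ± 0.118, followed by *Hsf2bp* at 0.350 ± 0.0995, *Zar1* at 0.319 ± 0.192 and *Rnf17* at 0.278 ± 0.0874. The lower 3 of these hippocampal levels differed by less than the SD of *Zar1*.

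Ordered by mean normalised count, the 4 *Kdm5c*-null groups were the top 4 of 8 for *Tex14*, *Rnf17* and *Hsf2bp*, which follows from the choice of the genes. Within them, neighbouring *Tex14* and *Rnf17* groups differed by less than the larger of their SDs. *Hsf2bp* fell from 65.1 ± 27.0 in DM amygdala and 56.6 ± 15.95 in *Kdm5c*-KO amygdala, which did not differ beyond their spread, to 37.4 ± 13.7 in DM hippocampus and 23.5 ± 6.10 in *Kdm5c*-KO hippocampus. *Zar1* was ordered first by region, with 111 ± 7.29 in *Kdm5c*-KO, 88.4 ± 22.0 in DM, 19.1 ± 9.63 in WT and 16.9 ± 6.09 in *Kmt2a*-HET amygdala, all above *Kdm5c*-KO hippocampus at 10.6 ± 6.27. The last pair of amygdala groups, and each pair of neighbours below them, differed by less than the larger SD.

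Whether the second mutation altered the raised levels was asked by comparing DM with *Kdm5c*-KO, a contrast the choice of genes did not use, although both groups were part of that choice against WT. In the amygdala DESeq2 called 0 of the 4 genes at an adjusted *p* under 0.1, while 0.00329% of the 30355 genes tested were called. The log2 fold change of DM relative to *Kdm5c*-KO was 0.18 for *Tex14* (95% interval -0.31 to 0.66), -0.32 for *Zar1* (-0.84 to 0.20), 0.13 for *Rnf17* (-0.61 to 0.86) and 0.21 for *Hsf2bp* (-0.68 to 1.10). In the hippocampus 0 of 4 were called against 0.0067% of 29841 genes. The values were 0.03 for *Tex14* (-0.39 to 0.45), -1.12 for *Zar1* (-2.89 to 0.64), 0.11 for *Rnf17* (-0.53 to 0.76) and 0.67 for *Hsf2bp* (-0.31 to 1.65). In both regions 0 of 4 had an unadjusted *p* under 0.05, with DESeq2 and with edgeR. Over all genes, DESeq2 gave 2.29% (amygdala) and 4.53% (hippocampus) under 0.05, and edgeR called 0 of 30374 and 0 of 29869. Most genes therefore gave the same outcome, and nothing particular to the 4 genes is read from these counts. The intervals of *Tex14* were the narrowest, and the interval of *Zar1* in the hippocampus was the widest, at the lowest counts. The direction of some values depended on the scaling. With ERCC size factors the median of all genes in the hippocampus was -0.71. There *Tex14*, *Rnf17* and *Hsf2bp* reversed to -0.70, -0.62 and -0.013, and *Zar1* was -2.20. In the amygdala *Tex14* and *Rnf17* reversed to -0.00575 and -0.15.

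*Kmt2a*-HET was compared with WT to ask whether the *Kmt2a* mutation alone altered the low levels in the presence of *Kdm5c*. These WT libraries are also those against which the genes were chosen. DESeq2 called 0 of 4 in the amygdala, against 0.00988% of 30355 genes, and 0 of 4 in the hippocampus, where 0% of 29841 genes were called (715 at an unadjusted *p* under 0.05, and 0 called by edgeR). In the amygdala the log2 fold change was 0.28 for *Tex14* (-0.43 to 0.98), -0.16 for *Zar1* (-0.82 to 0.51), 0.21 for *Rnf17* (-0.66 to 1.09) and -0.65 for *Hsf2bp* (-1.75 to 0.45). In the hippocampus it was 0.21 for *Tex14* (-0.61 to 1.03), 0.35 for *Zar1* (-1.97 to 2.67), -0.50 for *Rnf17* (-1.34 to 0.35) and -1.001 for *Hsf2bp* (-2.31 to 0.31). Again 0 of 4 had an unadjusted *p* under 0.05 with DESeq2 or edgeR. Over all genes, DESeq2 gave 3.05% (amygdala) and 2.4% (hippocampus) under 0.05, and edgeR called 0 of 30374 and 0 of 29869. Without the *Kmt2a*-HET library at 26.1, the amygdala value of *Tex14* became -0.21, and without the WT library at 22.7 that of *Hsf2bp* became 0.17.

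**Figure D2:**
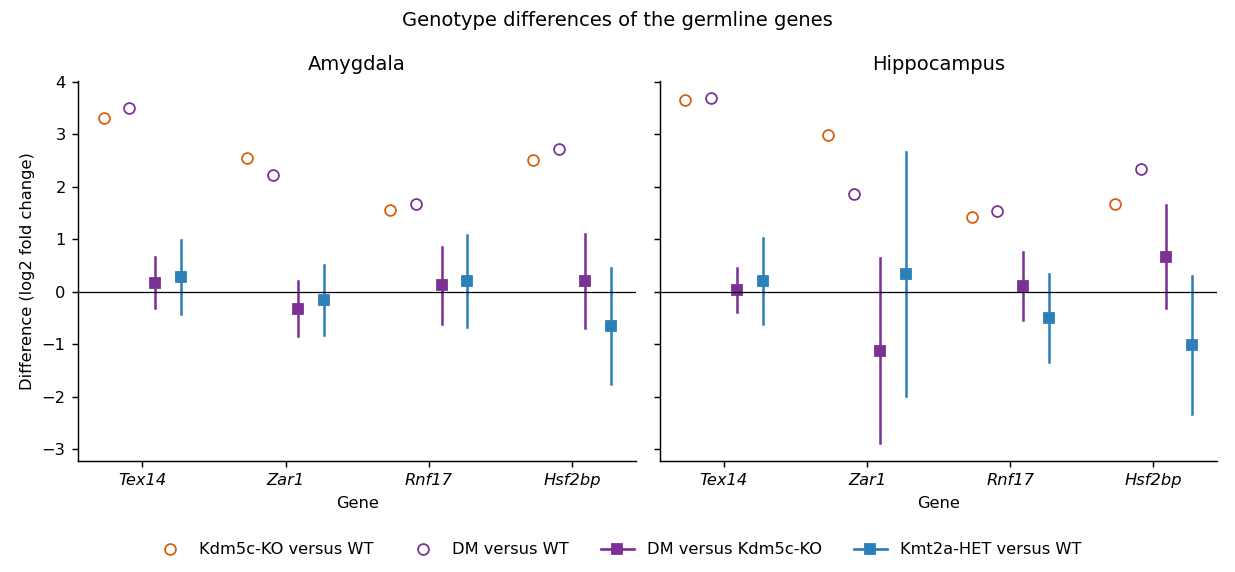
Log2 fold change of each gene in the amygdala (left) and hippocampus (right), with open circles for the contrasts that chose the genes (no error drawn) and filled squares with 95% intervals for DM against *Kdm5c*-KO and *Kmt2a*-HET against WT. All intervals of the filled squares include 0, and the open circles lie between 1.44 and 3.69.

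*Zar1* was lower in the hippocampus than in the amygdala in every genotype. Of the 4 genes, 1 was called between regions in WT (21.6% of 20855 genes called), 1 for *Kmt2a*-HET (30.2% of 21476), 2 for *Kdm5c*-KO (23.7% of 21476) and 1 for DM (27.6% of 22097), so that region differences were common among all genes. The mean normalised count fell from 19.1 to 1.403 (WT), from 16.9 to 1.71 (*Kmt2a*-HET), from 111 to 10.6 (*Kdm5c*-KO) and from 88.4 to 4.86 (DM), a ratio of 13.6, 9.87, 10.4 and 18.2. In each genotype it was lower in the hippocampus of 4 of 4 mice and the region ranges did not overlap. DESeq2 gave a log2 fold change of -3.88 ± 0.74 (SE) for WT (adjusted *p* = 4.24e-06), -3.33 ± 0.70 for *Kmt2a*-HET (2.24e-05), -3.39 ± 0.41 for *Kdm5c*-KO (1.59e-14) and -4.16 ± 0.47 for DM (6.45e-17). The calls held without any single library, but the size rested on few counts, with -5.72 in WT without hippocampus replicate 3, -4.50 in *Kmt2a*-HET without hippocampus replicate 1 and -4.76 in DM without hippocampus replicate 1. These fits took both regions of a mouse as independent. With the mouse as a block, DESeq2 gave -4.115 in WT (adjusted *p* = 7.35e-05) and -3.41 in *Kmt2a*-HET (0.000268). For *Kdm5c*-KO it gave -3.525 (3.72e-08) and for DM -4.289 (3.43e-10).

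*Hsf2bp* was called lower in the hippocampus of *Kdm5c*-KO mice, from 56.6 to 23.5 (log2 fold change -1.27 ± 0.49, adjusted *p* = 0.0492 in DESeq2), lower in 4 of 4 mice. In DM the value was -0.80 ± 0.48 (adjusted *p* = 0.253 in DESeq2), also lower in 4 of 4 mice. It was -0.43 ± 0.58 in WT (0.721) and -0.78 ± 0.67 in *Kmt2a*-HET (0.450), each lower in 2 of 4 mice. The *Kdm5c*-KO call held in DESeq2 with the mouse as a block (adjusted *p* = 0.0619). With edgeR the *Kdm5c*-KO call was lost (adjusted *p* = 0.106), as it was with ERCC size factors (0.615) and without *Kdm5c*-KO amygdala replicate 1 (0.172) or hippocampus replicate 2 (0.116), 3 (0.129) or 4 (0.113). *Tex14* had values of -0.63, -0.71, -0.30 and -0.44 and *Rnf17* of 0.36, -0.35, 0.24 and 0.24, for WT, *Kmt2a*-HET, *Kdm5c*-KO and DM mice, and 0 of these 8 were called. *Tex14* became called without *Kmt2a*-HET amygdala replicate 2 (adjusted *p* = 0.0933 in DESeq2), *Kmt2a*-HET hippocampus replicate 3 (0.0862) or DM hippocampus replicate 3 (0.0906). It was lower in the hippocampus in 3 (WT), 3 (*Kmt2a*-HET), 3 (*Kdm5c*-KO) and 4 (DM) of 4 mice, although with ERCC size factors, which moved the median of all genes by 0.89, its *Kdm5c*-KO value became 0.67.

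**Figure D3:**
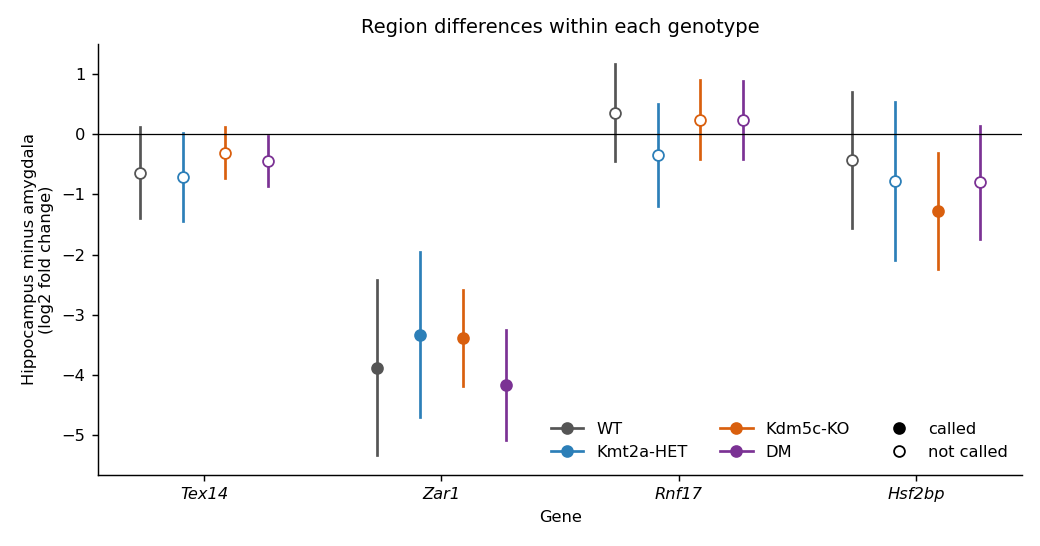
Log2 fold change of hippocampus relative to amygdala with its 95% interval, by gene and genotype, with filled points called at an adjusted *p* under 0.1. *Zar1* lies between -3.33 and -4.16 in the 4 genotypes, and the other genes between -1.27 and 0.36.

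The effect of *Kdm5c* loss in the hippocampus minus that in the amygdala, averaged over the intact and the heterozygous *Kmt2a* backgrounds, is given as a description, since it is built from the rise that chose the genes. On the log2 scale it was 0.30 for *Tex14*, -0.17 for *Zar1*, 0.23 for *Rnf17* and -0.43 for *Hsf2bp*. The planned fit over all 32 libraries called 0 of 4 by DESeq2 or edgeR, with 0 of 4 at an unadjusted *p* under 0.05, where DESeq2 called 0.0871% of 18374 genes, and nothing is read from this count. For *Zar1* the difference ran from -0.47 to 0.75 when single libraries were left out and was 0.10 with ERCC size factors, which gave 0.56 for *Tex14* and 0.14 for *Rnf17*.

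Most counts came from 1 protein-coding transcript per gene. Over all libraries, *Tex14*-201 (31 exons, 4763 nt) held 98.2% of the counts of *Tex14*, *Zar1*-201 (4 exons, 1429 nt) 82.7%, *Rnf17*-201 (37 exons, 5264 nt) 80.4% and *Hsf2bp*-201 (8 exons, 2867 nt) 83.1%. In *Kdm5c*-null amygdala the same transcripts held 98.4%, 82.0%, 83.7% and 82.7% of the summed counts, and in *Kdm5c*-intact amygdala 96.4%, 83.2%, 79.7% and 69.0%. The retained-intron transcript *Zar1*-202 held 10.1% of *Zar1* in *Kdm5c*-null and 2.67% in *Kdm5c*-intact amygdala, the latter resting on 4.08 counts. *Hsf2bp*-202, another protein-coding transcript, held 17.3% and 31.0%. The other transcripts of *Tex14* together had few counts, with *Tex14*-202, *Tex14*-203, *Tex14*-205 and *Tex14*-204 at 20.3, 13.1, 1.31 and 1.07 summed over all libraries. *Zar1*-203 had 89.3 counts. Those of *Rnf17* were 39.7 for *Rnf17*-203, 36.2 for *Rnf17*-202, 31.1 for *Rnf17*-205, 27.1 for *Rnf17*-204 and 6.42 for *Rnf17*-206, and *Hsf2bp*-203 had 0.74. These splits are estimates from shared exons, and no test of transcript use was made.

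**Figure D4:**
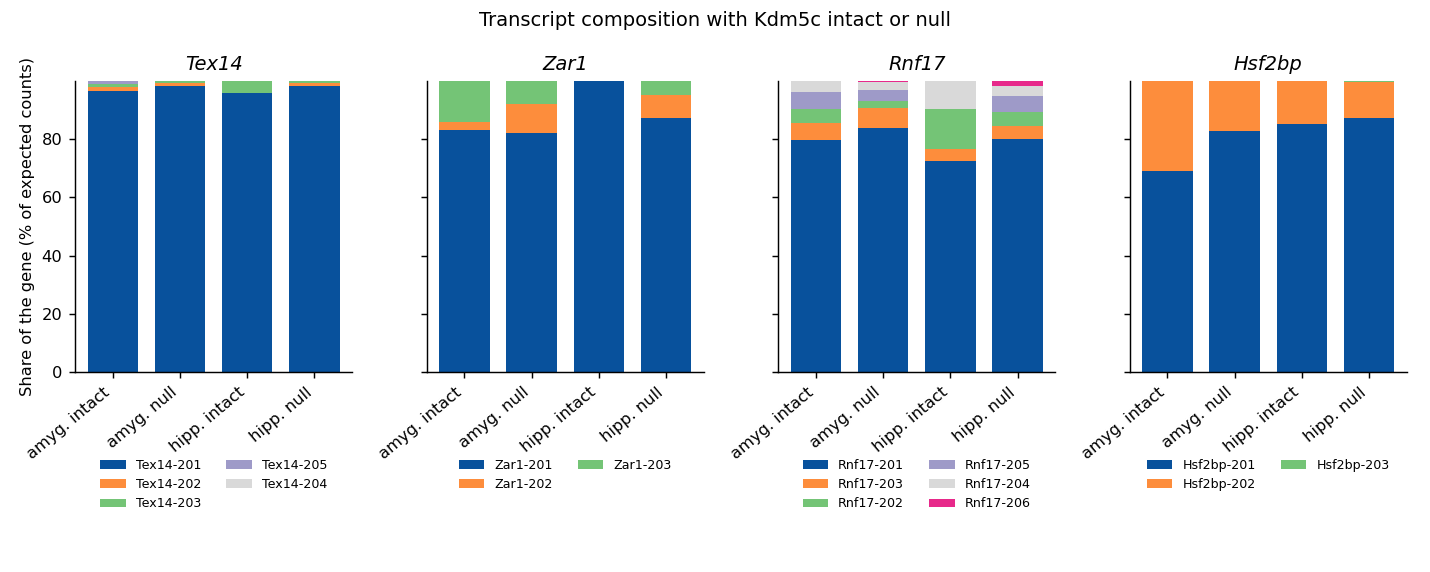
Share of each gene's summed expected counts by transcript, for *Kdm5c*-intact (WT and *Kmt2a*-HET) and *Kdm5c*-null (*Kdm5c*-KO and DM) libraries of each region. The main transcript of each gene takes the largest share in all bars, from 69.0% in *Hsf2bp* (intact amygdala) to 100% in *Zar1* (intact hippocampus, 11 counts).

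Other germline genes were described from 4 lists with 83 genes in all, of which 5 had 0 counts in every library and 36 had a mean normalised count of at least 10. Because the lists were drawn up with earlier results of these data known, their counts of calls beside all genes are a description. In *Kdm5c*-KO amygdala 3 of the 49 tested were called higher and 0 lower, against 0.72% higher and 0.0313% lower of 19168 genes. In DM amygdala 2 of 57 were called higher and 0 lower, against 0.901% and 0.065% of 21522. The hippocampus gave 0 higher and 0 lower of 47 in both *Kdm5c*-KO, where 0.829% and 0.18% of 19418 genes were called, and DM, where 0.706% and 0.17% were. Before the filter of DESeq2 on low means, an unadjusted *p* under 0.05 was found for 7 of 76 list genes in *Kdm5c*-KO amygdala (3.84% of 30355 genes), 7 of 76 in DM amygdala (4.86%), 9 of 75 in *Kdm5c*-KO hippocampus (5.55% of 29841) and 7 of 75 in DM hippocampus (5.33%). In the same order, edgeR called 1, 1, 0 and 0. The median log2 fold change of the list was 0.23, 0.05, 0.01 and 0.13 in the same order, beside -0.01, -0.01, 0.00 and 0.00 over all genes tested.

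Called genes lay in 2 lists. In the list of piRNA and Tudor-domain genes, 3 of 18 rose in *Kdm5c*-KO amygdala, *Stk31* (a Tudor-domain kinase of germ cells), *Fkbp6* (an immunophilin of the piRNA pathway) and *Pld6* (the mitochondrial phospholipase of piRNA processing), and 1 of 18 rose in DM amygdala (*Fkbp6*). *Fkbp6* had 0 in all 4 WT amygdala libraries, and 21.7, 3.79, 16.02 and 7.18 normalised counts in *Kdm5c*-KO and 16.1, 3.53, 10.6 and 36.3 in DM, at least 16.2-fold and 22.2-fold higher than a floor of 3 counts over the WT group (adjusted *p* = 0.000735 and 0.000176 in DESeq2). *Stk31* rose from 1.88 ± 1.54 to 12.5 ± 7.90 (SD, n = 4; log2 fold change 2.72 ± 0.77, adjusted *p* = 0.0658 in DESeq2) and *Pld6* from 44.9 ± 15.2 to 77.6 ± 8.14 (0.78 ± 0.23, adjusted *p* = 0.0978). Both of these calls were lost with edgeR (adjusted *p* = 0.237 and 0.482), with ERCC size factors (1 and 1) and with only the 2 groups in the fit (0.29 and 0.541). With single libraries left out, the *Stk31* call was lost without WT replicate 1, 3 or 4 or *Kdm5c*-KO replicate 1, 2 or 3 (adjusted *p* = 0.109 to 0.375 in DESeq2), and the *Pld6* call without WT replicate 1 or 3 or any 1 *Kdm5c*-KO library (0.177 to 0.544). The *Fkbp6* calls held under all of these settings. These 3 genes also had positive values in the groups where they were not called. *Stk31* had a log2 fold change of 2.06 ± 0.78 in DM amygdala (adjusted *p* = 0.380 in DESeq2), and in the hippocampus, where WT had 2.24 ± 2.58 normalised counts, *Kdm5c*-KO had 10.2 ± 2.38 (2.26 ± 0.80, 0.234) and DM 12.9 ± 6.58 (2.60 ± 0.79, 0.105). In DM hippocampus *Stk31* became called with the low-count filter (adjusted *p* = 0.0991 in DESeq2), without WT replicate 1 (0.0493) and without DM replicate 2 (0.0548). *Fkbp6* in the hippocampus had 1.59 ± 1.17 in WT, 7.64 ± 6.96 in *Kdm5c*-KO (log2 fold change 2.27 ± 1.02, adjusted *p* = 0.492 in DESeq2) and 11.5 ± 9.53 in DM (2.86 ± 1.003, 0.258). *Pld6* had 0.64 ± 0.23 in DM amygdala (adjusted *p* = 0.316 in DESeq2, and 0.0985 without WT replicate 2), and 0.25 and 0.23 in *Kdm5c*-KO and DM hippocampus. Whether these effects differ between regions or between *Kdm5c*-KO and DM is not shown by the calls.

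In the list of meiotic recombination and synapsis genes, 1 of 24 tested rose in DM amygdala and 0 of 22 in the *Kdm5c*-KO amygdala. It was *Sycp3*, a component of the axial element of meiotic chromosomes, from 13.8 ± 6.16 in WT to 40.7 ± 13.7 (log2 fold change 1.56 ± 0.40, adjusted *p* = 0.0166 in DESeq2, 0.146 in edgeR), while *Kdm5c*-KO had 29.6 ± 8.59 (log2 fold change 1.09, adjusted *p* = 0.397). In the hippocampus *Sycp3* had 7.56 ± 3.92 in WT, 16.3 ± 10.9 in *Kdm5c*-KO (log2 fold change 1.10 ± 0.56, adjusted *p* = 0.613 in DESeq2) and 22.9 ± 9.43 in DM (1.61 ± 0.55, 0.229). The *Sycp3* call was lost with ERCC size factors (adjusted *p* = 1) and without WT replicate 3 (adjusted *p* = 0.117 in DESeq2) or DM replicate 4 (0.121). The list of oocyte and maternal-effect genes had 0 of 6 called in *Kdm5c*-KO amygdala and 0 of 11 in DM amygdala, and that of intercellular bridge genes 0 of 3 and 0 of 4. *Tle6*, a component of the subcortical maternal complex and among the most abundant of the oocyte list, had amygdala means of 38.7 ± 6.18 (WT), 45.9 ± 9.16 (*Kdm5c*-KO) and 38.1 ± 7.14 (DM). *Lhx8*, an oocyte transcription factor also used by forebrain cholinergic neurons, had 172 ± 122, 297 ± 108 and 268 ± 43.8. *Racgap1*, which acts in cytokinesis with the partners of TEX14, had 260 ± 33.6, 287 ± 18.8 and 272 ± 35.3, and *Plk1*, the mitotic kinase, 34.9 ± 16.6, 33.0 ± 13.1 and 35.6 ± 10.5. *Ddx25* (1290 ± 111, 1255 ± 72.5 and 1345 ± 15.5), *Tdrkh* (917 ± 177, 837 ± 94.9 and 844 ± 97.5), *Mlh3* (532 ± 66.0, 482 ± 81.6 and 533 ± 74.4) and *Ythdc2* (530 ± 50.6, 482 ± 80.1 and 475 ± 52.5) were abundant in WT amygdala, unlike the 4 chosen genes.

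**Figure D5:**
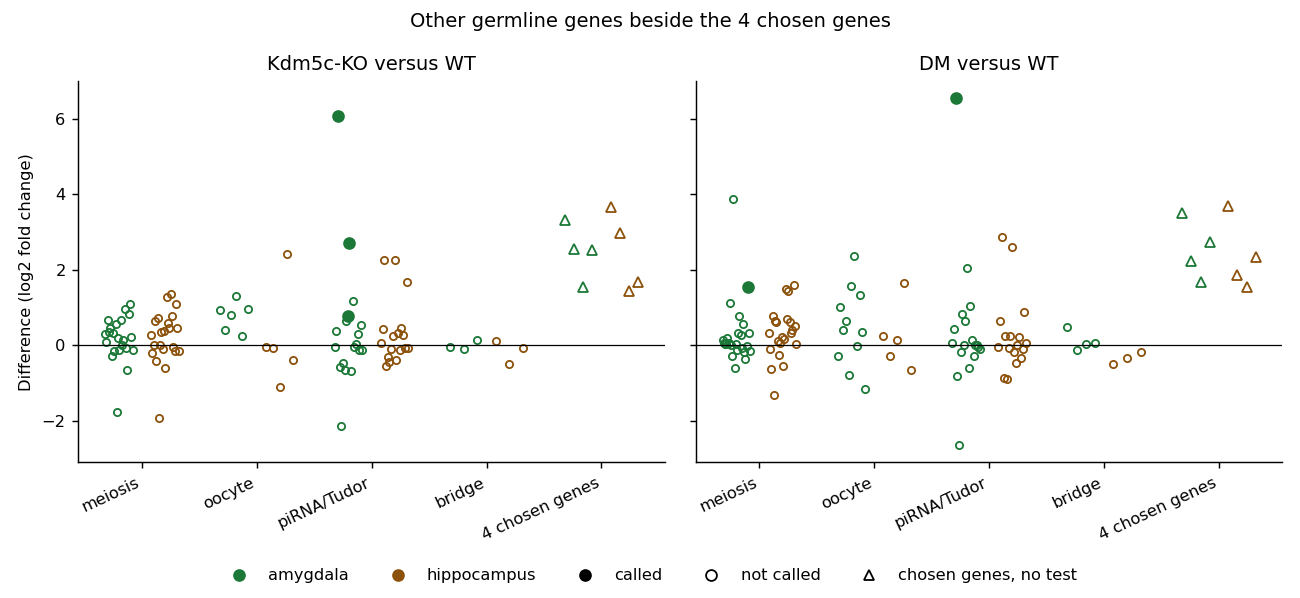
Log2 fold change relative to WT of the tested genes of 4 germline lists (circles, filled where called at an adjusted *p* under 0.1) and of the 4 chosen genes (triangles, not tested), in *Kdm5c*-KO (left) and DM (right). The uppermost filled circles are *Fkbp6*, whose WT amygdala libraries were all at 0 so that its position depends on the fit, with amygdala in green and hippocampus in brown, and most of the genes not called lie on both sides of 0.

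Genes of the known germline silencing machinery were measured in the same libraries, since *Kdm5c* itself belongs with them. Of 24 genes, 24 were tested in each comparison and 0 were called by DESeq2 in *Kdm5c*-KO or DM against WT in either region, where 0.72%, 0.901%, 0.829% and 0.706% of all genes were called higher. At an unadjusted *p* under 0.05 there were 0, 0, 1 and 2 in *Kdm5c*-KO amygdala, DM amygdala, *Kdm5c*-KO hippocampus and DM hippocampus, against 3.84%, 4.86%, 5.55% and 5.33% of all genes, and edgeR called 0 in each. *Ehmt2*, a histone H3 lysine 9 methyltransferase, had amygdala means of 7457 ± 1323 (WT), 6997 ± 337 (*Kdm5c*-KO) and 6955 ± 277 (DM) normalised counts. *Cbx3*, a heterochromatin protein, had 2575 ± 166, 2546 ± 243 and 2647 ± 249.

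Correlations among the 4 genes across the 16 libraries of a region are largely set by their choice. Pearson's *r* of log2 normalised counts between *Tex14* and the other 3 genes in the amygdala was 0.96 with *Zar1*, 0.82 with *Rnf17* and 0.87 with *Hsf2bp*, and the hippocampal values were 0.72, 0.88 and 0.80. Between *Zar1* and *Rnf17* it was 0.79 (amygdala) and 0.53 (hippocampus), between *Zar1* and *Hsf2bp* 0.88 and 0.47, and between *Rnf17* and *Hsf2bp* 0.72 and 0.86. Among 16000 genes with a mean of at least 10 in both regions, those most like *Tex14* by the mean *r* of the regions were *Rps4l* (0.94), *Dnah1* (0.93) and *Pgam2* (0.92). For *Zar1* they were *Lims2* (0.87), *As3mt* (0.85) and *Tex14* (0.84), for *Rnf17* *Tex14* (0.85), *Pgam2* (0.84) and *Zmynd8* (0.84), and for *Hsf2bp* *Crybb1* (0.86), *Rps4l* (0.85) and *Pgam2* (0.84). The points share genotypes, libraries and size factors, and no test was made.

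Markers of neighbouring tissues differed between libraries. The 12 choroid plexus markers, of which 0 were at 0 throughout any group, summed to 857 to 43149 normalised counts in DM amygdala against 923 to 1304 in WT and 880 to 1749 in *Kdm5c*-KO amygdala, and to 1504 to 110130 in *Kdm5c*-KO hippocampus against 998 to 26548 in WT. The 9 striatum markers summed to 3728 to 27110 over the amygdala groups and to 406 to 5612 in the hippocampus. The 10 ependymal and motile cilia markers summed to 790 to 1814 in *Kdm5c*-null and 682 to 1202 in *Kdm5c*-intact amygdala, and to 551 to 2536 and 329 to 990.5 in the hippocampus, with 0, 1, 2 and 1 of 10 called higher in *Kdm5c*-KO amygdala, DM amygdala, *Kdm5c*-KO hippocampus and DM hippocampus, against 0.72%, 0.901%, 0.829% and 0.706% of all genes. In the same order, 0, 6, 0 and 0 of the 12 choroid plexus markers were called higher, and 0, 12, 6 and 1 had an unadjusted *p* under 0.05. Their summed median in the hippocampus was 20706 in *Kdm5c*-null and 2213 in *Kdm5c*-intact libraries, and in the amygdala 1115 and 1059. The part of these tissues in the values of the 4 genes was not tested.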

How the data were processed

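RNA was measured as oligo-dT primed directional libraries with ERCC spike-in RNA, from 2 regions of 16 mice. Reads were mapped by the authors to mm10 with STAR 2.5.3a, restricted to unique reads, cleared of duplicates and counted with FeatureCounts (Subread 1.5.0). The authors deposited expected counts per gene and per transcript, and 16.8% of nonzero gene values were not whole, so the estimator is not certain and the annotation release was not given in the sources used here. Symbols came from GENCODE M21 (53620 of 53715 genes). The 92 ERCC sequences were left out of tests, and 0 value columns were unmatched.

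Expected counts were rounded and tested with the Wald test of DESeq2 1.42.0 in R 4.3.3, with the 16 libraries of a region in a genotype fit and all 32 in a region fit. Genes with an adjusted *p* (Benjamini-Hochberg) under 0.1 were called, adjusted over all genes tested. Intervals are estimates ± 1.96 SE at 95%. Normalised counts use size factors of all 32 libraries, whereas fold changes come from each fit. The scripts were tested on simulated data. Alternatives were edgeR 4.0.16 (quasi-likelihood, TMM), TMM or ERCC size factors, a filter of 10 counts in 4 libraries, an adjusted *p* under 0.05, only the 2 groups compared, a replicate block and leaving out each library. The labels number both regions of a mouse alike, and deviations from group means correlated at 0.00259 to 0.341 within a mouse (10 of 16 over 0.1). All pairs of replicates differed by more than counting noise (mean chi-square per gene 3.14 to 93.2).

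The 4 genes and all lists were chosen with earlier results of these data known. Named genes were the 4 genes with every transcript, *Kdm5c* and *Kmt2a*, list genes called against WT, up to 2 of the most abundant uncalled genes per list, and the 3 genes most like each gene. The lists cover intercellular bridge, oocyte, piRNA and Tudor-domain, meiotic and silencing genes, and markers of choroid plexus, striatum, ependyma, hippocampus and amygdala.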

Additional observations from a re-analysis of the deposited data

Results flagged for a closer look

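In 3 of 32 groups of 4 libraries, 1 library lay far from the others by Dixon's criterion at 95%, which chance alone meets in about 1 in 20 groups. *Tex14* in *Kmt2a*-HET amygdala replicate 4 had 26.08 normalised counts, while the other libraries of the group had 8.77 to 11.2. *Zar1* in DM hippocampus replicate 1 had 9.664, against 2.71 to 3.83. *Hsf2bp* in *Kdm5c*-KO hippocampus replicate 1 had 32.55, against 19.4 to 21.6.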

How the results depend on the processing

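Of the 1286 values computed over all settings, main values left out, 1189 were rated unchanged. For tested fold changes this meant the same direction and the same side of the threshold. For counts of calls it meant an equal or near count. For the untested values of the 4 genes against WT it meant the same direction and a shift smaller than the SD between libraries. *Zar1* stayed called between the regions in every genotype under every alternative run, and DM against *Kdm5c*-KO and *Kmt2a*-HET against WT kept 0 of 4 called. The cause of the changes below was not tested.

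With ERCC size factors, the median log2 fold change of all genes was -0.25 (amygdala) and -0.71 (hippocampus) in DM against *Kdm5c*-KO, -0.51 in DM against WT hippocampus, and 0.77, 0.51, 0.89 and 0.42 between regions in WT, *Kmt2a*-HET, *Kdm5c*-KO and DM, against medians of -0.017 to 0.0028 with the size factors of DESeq2. These values reversed. DM against *Kdm5c*-KO gave -0.00575 for *Tex14* and -0.15 for *Rnf17* in the amygdala, and -0.70, -0.62 and -0.013 for *Tex14*, *Rnf17* and *Hsf2bp* in the hippocampus. Between regions, *Hsf2bp* in WT gave 0.092, *Rnf17* in *Kmt2a*-HET 0.15 and *Tex14* in *Kdm5c*-KO 0.67. The difference between regions in the effect of *Kdm5c* loss (interaction) gave 0.10 for *Zar1* and *Pld6* in DM against WT hippocampus -0.25. *Tex14* in *Kdm5c*-KO hippocampus moved to 4.26 and *Rnf17* in DM hippocampus to 1.01. Against WT in the hippocampus, *Zar1* in *Kdm5c*-KO moved to 3.895 and *Hsf2bp* in DM to 1.62, and *Zar1* in DM against *Kdm5c*-KO to -2.20. Between regions, *Rnf17* moved to 1.30 in WT and 1.09 in *Kdm5c*-KO, and *Zar1* and *Hsf2bp* in *Kdm5c*-KO to -2.38 and -0.45.

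Of the 4 genes, 1 was called between regions in *Kdm5c*-KO with edgeR and with ERCC factors. The germline list had 1 call in *Kdm5c*-KO amygdala at an adjusted *p* under 0.05, with edgeR, with ERCC factors and with only the 2 groups, and 1 in DM amygdala with edgeR and with ERCC factors. In DM hippocampus it had 1 with the low-count filter and with only the 2 groups. With the replicate number as a block it had 2 in both *Kdm5c*-KO and DM hippocampus. Mice of different genotypes share only a number, with correlations of -0.216 to 0.306 and no comparison with all 4 pairs over 0.1. The block, by number or by mouse, changed no other call. The low-count filter left no value for *Zar1* within the hippocampus.

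With each library left out in turn, there were 1 to 2 of 4 called between regions in *Kmt2a*-HET, *Kdm5c*-KO and DM, and 1 to 3, 1 to 3 and 0 to 1 list calls in *Kdm5c*-KO amygdala, DM amygdala and DM hippocampus. *Hsf2bp* in the amygdala ranged from 2.24 to 3.35 in *Kdm5c*-KO and 2.45 to 3.56 in DM, and *Zar1* in the hippocampus from 2.52 to 4.88 in *Kdm5c*-KO and 1.28 to 3.76 in DM. In DM against *Kdm5c*-KO amygdala the range was -0.047 to 0.42 for *Rnf17* and -0.063 to 0.41 for *Hsf2bp*, and in the hippocampus -0.059 to 0.097 for *Tex14* and -0.077 to 0.33 for *Rnf17*. In *Kmt2a*-HET against WT amygdala it was -0.21 to 0.49 for *Tex14*, -0.41 to 0.18 for *Zar1* and -1.01 to 0.17 for *Hsf2bp*, and in the hippocampus -0.073 to 0.54 for *Tex14* and -0.82 to 2.24 for *Zar1*. Between regions in WT, *Hsf2bp* ranged from -0.83 to 0.41, and the *Zar1* interaction from -0.47 to 0.75. *Zar1* between regions ranged from -5.72 to -3.39 in WT and from -4.50 to -2.85 in *Kmt2a*-HET. Hippocampal *Zar1* rested on 5 to 42 counts per group, which limits every comparison within that region.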
